A study of Mus musculus with 131 samples.

Results

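The H3K4me1 ChIP-Seq lists of adult hepatocytes comprised 70466 peaks from wild-type (WT) mice and 77859 peaks from mice lacking Tet2 and Tet3 in hepatocytes (DKO). Every peak of both lists was taken, which makes 148325 of the 804494 peaks in the 13 peak lists analysed in the series. Each genotype was represented by 1 library, so no difference between the lists has a replicate check, and the intervals given below cover counting error only.

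The series follows DNA methylation, chromatin and RNA in mouse liver from birth to adulthood. Both H3K4me1 samples were hepatocytes of C57Bl mice at 15 weeks. The DKO mice carried floxed Tet2 and Tet3 alleles (Tet2F/Tet3F) and received, at 1 day of age, an AAV8 virus that expressed Cre from the hepatocyte-specific Tbg promoter. The WT mice were not injected, so injection of virus and loss of Tet2 and Tet3 cannot be told apart in these lists. The same holds for the H3K27ac samples used below, also hepatocytes of 15 weeks, of which the DKO sample alone was injected at 1 day. Hepatocytes were isolated on percoll and sorted as CD45-negative cells. The methylation libraries (WGBS, 1 each) came from hepatocytes of newborn mice (1 week) and adult WT mice, neither injected, and of adult DKO mice injected at 1 day. The RNA comparison used 3 DKO libraries and 3 libraries of WT mice injected with the Cre virus at 1 day (injected controls), all of 15 weeks. A further comparison set the DKO libraries against 3 libraries of uninjected WT mice of 15 weeks. Other libraries entered only the shared estimate of spread. They were uninjected WT of 1 and 3 weeks, and WT and DKO of 15 weeks injected at 3 weeks.

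H3K4me1, monomethylation of lysine 4 of histone H3, marks enhancers and the flanks of promoters, including enhancers that are primed but not active, and H3K27ac is added at active ones. It is written mainly by the KMT2C and KMT2D methyltransferases. In liver, enhancers bound by hepatocyte transcription factors lose DNA methylation after birth, and TET enzymes oxidise methylcytosine in the course of that loss. The comparison addresses which enhancer marks differ when the loss of methylation is blocked.

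To show what such DNA looks like, 200-base WGBS tiles with the largest methylation difference in their peak are printed for 9 peaks (mm9, plus strand, 5′ to 3′). CpG sites are in capitals. All 9 tiles lay in introns, lost at least 35 points of methylation after birth in WT and were methylated in DKO. The first 5 come from the WT-only peaks with the highest methylation difference, Atp9a is a strong WT-only peak, Ergic1 and Macrod1 are peaks that fell most in DKO, and Loxl2 is a peak that rose.
Eri3, chr4:117281001-117281200, intron: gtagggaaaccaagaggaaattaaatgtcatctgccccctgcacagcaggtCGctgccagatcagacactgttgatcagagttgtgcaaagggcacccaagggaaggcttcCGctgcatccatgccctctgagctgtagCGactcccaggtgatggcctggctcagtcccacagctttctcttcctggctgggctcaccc
Eif2c2, chr15:72967401-72967600, intron: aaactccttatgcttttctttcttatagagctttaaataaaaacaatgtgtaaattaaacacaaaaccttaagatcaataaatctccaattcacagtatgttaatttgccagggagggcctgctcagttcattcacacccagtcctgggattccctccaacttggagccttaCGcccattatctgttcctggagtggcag
Tspan15, chr10:61655201-61655400, intron: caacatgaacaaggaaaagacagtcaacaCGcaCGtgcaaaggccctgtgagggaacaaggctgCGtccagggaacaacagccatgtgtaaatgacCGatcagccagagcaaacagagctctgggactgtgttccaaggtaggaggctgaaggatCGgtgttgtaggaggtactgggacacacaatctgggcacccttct
Rai1, chr11:60010201-60010400, intron: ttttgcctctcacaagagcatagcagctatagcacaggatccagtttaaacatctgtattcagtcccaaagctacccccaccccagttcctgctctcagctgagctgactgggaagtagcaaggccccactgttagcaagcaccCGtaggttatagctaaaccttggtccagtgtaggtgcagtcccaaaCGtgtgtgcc
2310008H04Rik, chr16:15985201-15985400, intron: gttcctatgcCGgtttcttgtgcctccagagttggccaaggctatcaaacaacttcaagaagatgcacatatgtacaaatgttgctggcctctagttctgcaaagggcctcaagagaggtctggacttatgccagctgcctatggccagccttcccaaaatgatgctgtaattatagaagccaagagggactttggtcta
Atp9a, chr2:168559201-168559400, intron: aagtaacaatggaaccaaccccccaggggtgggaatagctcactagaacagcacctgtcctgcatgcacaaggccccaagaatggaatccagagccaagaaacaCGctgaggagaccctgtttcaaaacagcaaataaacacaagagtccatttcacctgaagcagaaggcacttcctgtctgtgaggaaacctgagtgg
Ergic1, chr17:26748201-26748400, intron: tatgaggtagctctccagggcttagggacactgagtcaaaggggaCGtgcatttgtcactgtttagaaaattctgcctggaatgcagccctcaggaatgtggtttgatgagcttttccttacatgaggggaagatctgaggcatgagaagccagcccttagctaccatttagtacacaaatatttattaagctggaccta
Macrod1, chr19:7195601-7195800, intron: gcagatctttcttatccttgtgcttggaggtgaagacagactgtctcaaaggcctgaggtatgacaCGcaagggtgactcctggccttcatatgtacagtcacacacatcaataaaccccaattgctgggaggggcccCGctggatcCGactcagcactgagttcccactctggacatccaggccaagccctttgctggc
Loxl2, chr14:70090601-70090800, intron: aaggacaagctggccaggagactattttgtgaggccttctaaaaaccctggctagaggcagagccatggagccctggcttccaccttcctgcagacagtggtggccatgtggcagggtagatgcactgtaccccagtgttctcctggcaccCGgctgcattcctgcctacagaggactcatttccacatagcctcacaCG

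These tiles held 1 to 5 CpGs each. The Ergic1 tile had a methylation level of 81.6% in newborn, 0% in adult WT and 96.4% in DKO hepatocytes. The Eri3 tile had 53.9%, 3.64% and 82.1%, and the Eif2c2 tile, with 1 CpG, had 45.7%, 0% and 89.2%. DKO methylation was above the newborn level except in the 2310008H04Rik and Macrod1 tiles, which were under it by less than 2 points. The number of reads behind a tile is unknown, beyond the authors' minimum coverage of 15 CpGs per tile.

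The libraries were of similar depth, with 33777718 tags in WT and 29365951 in DKO, of which 33.5% and 36.8% lay in peaks. The WT peaks covered 142 Mb with a median length of 1196 bp, and the DKO peaks 148 Mb with a median length of 1173 bp. The median Normalized Tag Count, the number of tags in a peak per 10000000 tags of the library, was 22.5 in WT and 22.8 in DKO. The median fold over the input library was 5.66 in WT and 6.68 in DKO, and comparison with input removed 4097 candidate peaks in WT and 2517 in DKO. The part of the input libraries in the differences between the lists was not tested.

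Of the 15 hepatocyte markers found in the annotation, 13 had a peak midpoint in WT and 14 in DKO. Of all 33581 genes with unique names, 17043 had one in WT and 17558 in DKO. The presence of a peak did not set hepatocyte markers apart from the endothelial markers given below. Hnf4a, the nuclear receptor central to hepatocyte identity, held 10 WT and 15 DKO peaks. Of the 9 Kupffer cell and macrophage markers found in the annotation, 2 had a peak in each genotype (Csf1r and Cd68). Their summed tags were 114 in WT and 85.3 in DKO, while Clec4f, Vsig4 and Marco had no peak. Of 12 other leukocyte markers, Cd79b had 1 peak in WT and none had a peak in DKO, and Ptprc, which encodes CD45, had none. Sinusoidal endothelial markers had peaks in 9 of 11 genes in WT and 10 in DKO (1062 and 1155 tags), stellate cell markers in 5 and 6 of 12 (156 and 209 tags) and cholangiocyte markers in 4 and 5 of 8 (168 and 117 tags). Both lists held 15 peaks on the Y chromosome.

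Most peaks were present in both genotypes, and the remainder were weak and short. Of the WT peaks, 55934 overlapped a DKO peak by at least 1 bp and 14532 (20.6%, 95% Wilson interval 20.3 to 20.9) did not (WT-only peaks, lost in DKO). Of the DKO peaks, 21347 (27.4%, 27.1 to 27.7) overlapped no WT peak (DKO-only peaks, new in DKO). The WT-only peaks made up 8.39% of the covered sequence and 5.64% of the tags in WT peaks, and the DKO-only peaks 11.7% and 7.77% in DKO. Their median tag counts were 8.88 and 9.53, against 29.3 and 33.0 for shared peaks of WT and DKO. By sequence, 109 Mb were covered in both genotypes, which was 76.3% of the WT and 73.3% of the DKO coverage.

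The share of peaks without a counterpart fell steeply with the tag count. In the decile of WT peaks with the fewest tags 62.8% were WT-only, in the decile with the most 0.27%. The same shares for DKO peaks were 70.8% and 0.22%. With lists of equal length, the 70466 best peaks of each by findPeaks Score, 17704 WT peaks and 17544 DKO peaks had no counterpart, counts that equal lengths make nearly equal by construction. Of the 50000 best peaks of each list set against the whole other list, 7363 WT and 9758 DKO peaks had no counterpart. Of the 5000 best-scoring peaks, 95.9% of WT and 94.5% of DKO overlapped a peak of the whole other list. Among the 5000 best of the other genotype alone, 17.4% of both found a counterpart. Of the peaks without a counterpart, 22.4% of WT-only and 16.1% of DKO-only peaks lay within 1 kb of a peak of the other genotype.

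The WT-only and DKO-only peaks differed in position. Of the WT-only peaks 62.4% lay in gene bodies, 29.2% between genes and 8.47% at promoters (1 kb before to 100 bp past a start). Of the DKO-only peaks 53.1%, 39.2% and 7.68% lay there. Shared peaks of WT were distributed as 59.2%, 29.4% and 11.4%. The median distance to the nearest transcription start was 14842.5 bp for WT-only and 22009 bp for DKO-only peaks, against 10381.5 bp for shared WT peaks. More than 10 kb from any peak of the other list were 24.0% of WT-only and 38.8% of DKO-only peaks.

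Methylation at the lost and new peaks was read from 8049849 tiles with a value in all 3 WGBS libraries. A tile was called lost after birth when the adult WT level was at least 35 points under the newborn level, and kept when the DKO level was also at least 35 points above adult WT. There were 92708 kept tiles, with mean levels of 74.8% in newborn, 19.8% in adult WT and 76.5% in DKO hepatocytes. Adult WT values define this class, so these levels are a description.

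Kept tiles were concentrated under H3K4me1 peaks of both genotypes, and more of them under WT peaks. Of the kept tiles 66.2% (65.9 to 66.5) lay in a WT peak and 60.9% (60.6 to 61.2) in a DKO peak, where 6.97% and 7.05% of all tiles did. Within a peak in WT alone were 11643 kept tiles and within a peak in DKO alone 6790, a ratio of 1.71, while for all tiles the ratio was 0.957. Tiles that were lost after birth but not kept in DKO showed a smaller difference, 21.0% in WT and 20.3% in DKO peaks. Tiles under 10% methylation in both newborn and adult went the opposite way, with 49.5% in WT and 53.9% in DKO peaks. With the lists at equal length, the share of kept tiles in DKO peaks was 58.9%.

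**Figure D1:**
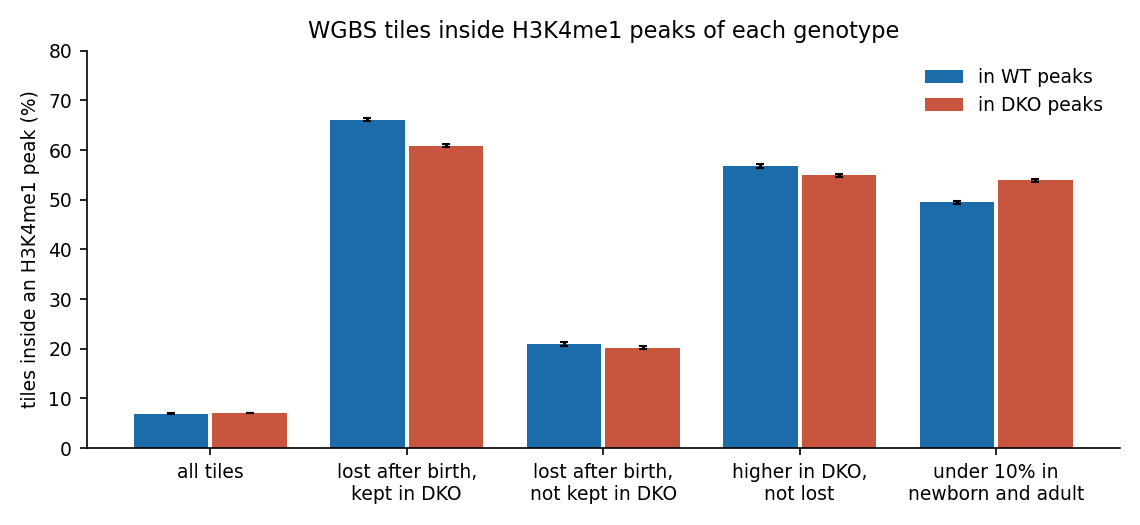
Share of WGBS tiles whose centre lay in an H3K4me1 peak of WT (blue) or DKO (red), by class of tile, with 95% Wilson intervals (counting error only). Kept tiles, lost after birth in WT and methylated in DKO, were in WT peaks in 66.2% and in DKO peaks in 60.9%, and tiles under 10% went from 49.5% to 53.9%.

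Among the peaks, 26.6% (25.8 to 27.3) of the WT-only and 13.2% (12.7 to 13.6) of the DKO-only peaks contained a kept tile. Of shared peaks 38.4% in WT and 38.5% in DKO did, but shared peaks are longer and stronger and hold more tiles. At a like tag count the order differed. In the fifth decile of WT peaks by tags, 25.6% of peaks with a kept tile were WT-only against 11.2% without, and in the eighth decile 6.55% against 1.80%. In the DKO list the relation was turned round, since 18.3% of peaks with a kept tile were DKO-only in the fifth decile against 25.3% without, and 4.15% against 5.33% in the eighth. The higher share of WT-only peaks among those with a kept tile held in the lowest 9 deciles, and in the highest decile the shares were 0.27% and 0.32%. In the DKO list the share was lower with a kept tile in all 10 deciles.

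**Figure D2:**
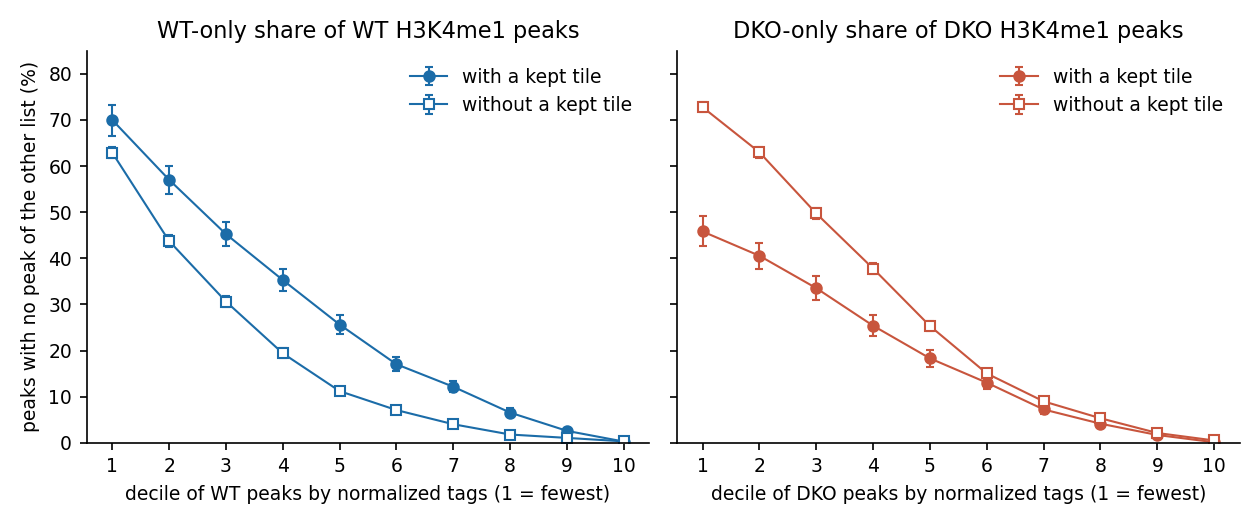
Share of peaks with no overlapping peak in the other genotype (y axis, percent) by decile of Normalized Tag Count (x axis), for peaks with (filled circles) and without (open squares) a kept tile, with 95% Wilson intervals. In WT the filled circles lie above the squares from the first to the ninth decile (70.0% against 62.9% in the first), and in DKO they lie below (45.8% against 72.8% in the first).

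Most lost peaks held no kept tile, by the call of 35 points. All tiles together had mean levels of 78.7% in newborn, 75.8% in adult WT and 76.4% in DKO. The WT-only peaks with a tile had mean levels of 68.6% in newborn, 58.5% in adult WT and 71.2% in DKO, with a mean difference of 12.7 points between DKO and adult WT. Shared WT peaks had 57.5%, 48.3% and 61.2%, and a difference of 13.0 points. DKO-only peaks had 63.9%, 57.3% and 66.4%, and a difference of 9.04 points, so the sites of new peaks were on average more methylated in DKO than in WT. By size of the methylation difference, the share of WT peaks that were WT-only was highest at both ends. It was 42.0% where DKO methylation was more than 10 points under adult WT, 30.5% from 10 points under to equal, 19.4% up to 10 points above, 15.4% at 10 to 20, 20.2% at 20 to 35 and 30.4% (29.0 to 31.9) at 35 points or more above. The median tags of these 6 classes were 7.99, 11.5, 21.3, 35.8, 30.8 and 16.0, so the share was high where peaks were weak. For DKO peaks the share that were DKO-only was 66.1%, 43.7%, 28.3%, 20.5%, 17.8% and 23.0%. Of the 13937 WT-only peaks with a tile, 10235 held no kept tile.

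Shared peaks were compared as 52271 pairs that are each other's largest overlap. The median log2 ratio of DKO to WT tags was 0.19 per peak and 0.12 per kb of peak, so changes in single peaks are best read against this upward shift. Of 39968 pairs that overlapped by at least 50% of both peaks, 869 (2.17%) fell and 1861 (4.66%) rose by at least 1 log2 unit. Per kb only 41 fell and 58 rose that much, since the length of a peak changed along with its tags.

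The tag ratio of these pairs moved with the methylation of the sequence covered in both genotypes. Where DKO methylation was 0 to 10 points above adult WT, the median log2 ratio was 0.23 over 13014 pairs and 29.4% of pairs had fewer tags in DKO. Where it was at least 35 points above, the median was -0.04 over 2713 pairs and 52.2% had fewer tags. Per kb the medians were 0.17 and 0.01. In the quintile of pairs with the fewest tags the median was -0.09 with a kept tile and 0.23 without, and in the quintile with the most it was 0.13 and 0.20. Of the pairs with a tile that fell by 1 log2 unit 60.8% held a kept tile, of those that rose 21.3%, and of all 37.8%. Among pairs of at least 100 tags, which are long and mostly hold such a tile, these shares were 81.8%, 63.5% and 77.4%.

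**Figure D3:**
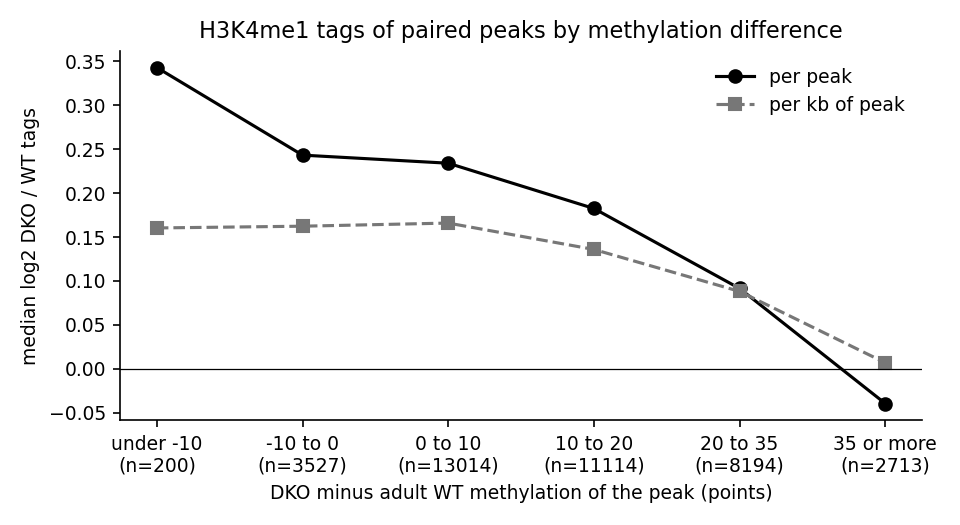
Median log2 ratio of DKO to WT normalized tags of paired peaks (y axis) by the DKO minus adult WT methylation of the sequence covered by both peaks, in percentage points (x axis, number of pairs below), per peak (circles) and per kb (squares). The median per peak goes from 0.23 at 0 to 10 points to -0.04 at 35 points or more.

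Single peaks show the range of these changes. The largest falls among pairs with at least 100 tags were in Ergic1, which encodes a protein of the compartment between endoplasmic reticulum and Golgi, from 122.3 tags in WT (exact Poisson interval 111 to 135) to 32.4 in DKO (26.2 to 39.5), a log2 ratio of -1.92, and in Macrod1, a mono-ADP-ribosylhydrolase, from 127.3 to 34.4 (-1.89). A peak between genes on chromosome 4 went from 164.3 to 50.7, one in Tmem19 from 159.6 to 49.7 and one in Nsun2, an RNA cytosine methyltransferase, from 105.4 to 33.7. All 5 shrank in length and held 3 to 6 kept tiles. The sequence covered in both genotypes at Macrod1 had a mean methylation of 68.6% in newborn, 29.9% in adult WT and 73.1% in DKO over 10 tiles. The largest rise was in Cdh1, which encodes E-cadherin, from 77.9 tags (68.7 to 87.9) to 288.8 (270 to 309), a log2 ratio of 1.89. Those in Pop1 (35.5 to 126.3), Gm13415 (33.2 to 103.9) and between genes on chromosome 12 (51.2 to 160.0) held no kept tile, like Cdh1. The Loxl2 peak rose from 36.7 to 120.5 tags with 4 kept tiles and a methylation of 31.8% in adult WT and 70.0% in DKO, so a rise of the mark and a high DKO methylation occurred at the same peak.

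The strongest peaks found in 1 genotype alone differed in density. The WT-only peaks of Sfi1 (590.6 tags) and Gm10801 (352.9 tags) had 589 and 548 tags per kb where the median WT peak had 18.8, and the DKO-only list held 2 peaks in Sfi1 (641.2 and 531.9 tags) at 494 and 605 tags per kb and 1 in Pisd-ps2 (406.9 tags) at 250. The origin of tags at this density was not tested. The others, apart from Mid1, had densities of 22.5 to 24.3 tags per kb. The WT-only peaks of C4a, a complement gene (206.9 tags, chr17:34954568-34963311), Atp9a, a phospholipid flippase (150.7 tags, chr2:168555140-168561531), Cd4 (150.1 tags, chr6:124828690-124834942) and Agmat, agmatinase (148.9 tags, chr4:141303227-141309355) were 6 to 9 kb long and held 7, 8, 9 and 2 kept tiles. At Cd4, a gene better known in T cells, the mean methylation was 81.3% in newborn, 47.9% in adult WT and 78.6% in DKO. For single peaks, ATAC-Seq was read from replicate 1 of each genotype alone, and the other replicate was not looked up. Atp9a and Cd4 overlapped an H3K27ac and an ATAC-Seq peak in WT and neither in DKO. C4a and Agmat overlapped an H3K27ac peak in both genotypes, and an ATAC-Seq peak was found at Agmat in WT but not in DKO and at C4a in neither. The DKO-only peaks of Unc5d, a netrin receptor (182.9 tags, chr8:30242374-30250494), and Aven, an apoptosis regulator (135.2 tags, chr2:112432819-112438605), held no kept tile and overlapped H3K27ac and ATAC-Seq peaks in DKO but not in WT. At Unc5d the adult WT and DKO methylation were 74.7% and 79.0%. The DKO-only peak of Mid1 on the X chromosome (137.6 tags) was 2055 bp long with 67.0 tags per kb, had no tile with values and overlapped H3K27ac and ATAC-Seq peaks in both genotypes.

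The WT-only peaks with the highest difference in methylation were small. The peak of Eri3, an exoribonuclease (chr4:117280428-117281320, 14.5 tags), went from 5.53% in adult WT to 80.1% in DKO over 3 tiles. The peaks of Tspan15, a tetraspanin (10.7 tags), Eif2c2, the Argonaute 2 gene (7.4 tags), Rai1 (7.4 tags) and 2310008H04Rik (23.4 tags) had differences of 61.4 to 65.4 points. Of the 5, Eri3 overlapped an ATAC-Seq peak in WT and not in DKO, and 2310008H04Rik the reverse, in replicate 1 of each genotype alone.

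The bases of tiles differed by class of peak, kept or not. Kept tiles in WT-only peaks had a mean of 2.76 CpGs, in shared peaks 2.40 and in DKO-only peaks 1.81, and other tiles in peaks had 3.43. The motif ATCAAT, the core of the site of HNF6, was found on either strand in 11.7% of kept tiles in WT-only peaks, 9.91% in shared and 18.5% in DKO-only peaks, and in 7.10% of other tiles in peaks. For TGTTTAC, a FOXA core, the shares were 4.30%, 3.56%, 5.11% and 3.26%, and for CAAAGTC, an HNF4A core, 5.08%, 4.62%, 5.78% and 3.599%. None of the 3 motifs contains another. The mean GC content was 46.2%, 45.7%, 41.9% and 46.7%, so base composition moved with these shares and its part was not tested. Tiles that were not kept had the same order by class. In WT-only, shared and DKO-only peaks, 7.05%, 6.83% and 9.66% of them held ATCAAT, with a mean GC content of 47.5%, 46.9% and 44.5%.

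H3K27ac, the mark of active enhancers, differed in the same direction as H3K4me1 (1 library per genotype). Within each genotype the 2 marks carry the same sample number, so they may come from the same cells and are not an independent check. Of the WT-only peaks 21.8% overlapped an H3K27ac peak in WT and 14.8% in DKO. Of the DKO-only peaks 10.9% did in WT and 17.98% in DKO. Shared WT peaks went from 52.2% to 58.1%, so the fall at WT-only peaks was against the overall direction.

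ATAC-Seq, which maps open chromatin, was available for 2 liver samples of each genotype. At WT-only peaks the share with an ATAC-Seq peak was 10.7% and 13.6% in WT and 7.95% and 10.6% in DKO (means 12.1% ± 2.01 and 9.29% ± 1.90, SD, n = 2), which did not overlap but were closely adjacent. At DKO-only peaks it was 9.70% and 15.4% in WT and 17.5% and 20.2% in DKO (12.6% ± 4.05 and 18.9% ± 1.85). The exact permutation test gave p = 0.333 for both (two-sided), the smallest it allows with 2 against 2. The ATAC-Seq lists were of unequal length, 47639 and 57166 peaks in WT and 50704 and 65515 in DKO. With equal peak numbers the shares at DKO-only peaks were 9.70% and 12.6% in WT and 16.2% and 12.5% in DKO. These overlapped (exact permutation p = 0.667). At WT-only peaks they were 10.7% and 10.6% in WT and 7.29% and 6.68% in DKO. For shared peaks the libraries of both genotypes overlapped in range (exact permutation p = 0.667).

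With a kept tile the contrast at WT-only peaks was larger. Over the 3702 WT-only peaks with a kept tile, H3K27ac overlapped 29.6% in WT and 12.7% in DKO, and ATAC-Seq 18.8% and 23.3% in WT against 6.56% and 10.1% in DKO. Over the 10235 without one, H3K27ac overlapped 19.7% and 15.8%, and ATAC-Seq 8.19% and 10.3% against 8.48% and 10.97%, which is the same range. The 2 sets differed in median tags, 14.2 and 7.99. At DKO-only peaks without a kept tile ATAC-Seq overlapped 9.37% and 14.4% in WT and 17.1% and 19.7% in DKO, with the full lists of unequal length. With a kept tile the shares were 15.3% and 25.8% in WT and 22.6% and 26.6% in DKO, and these overlapped.

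**Figure D4:**
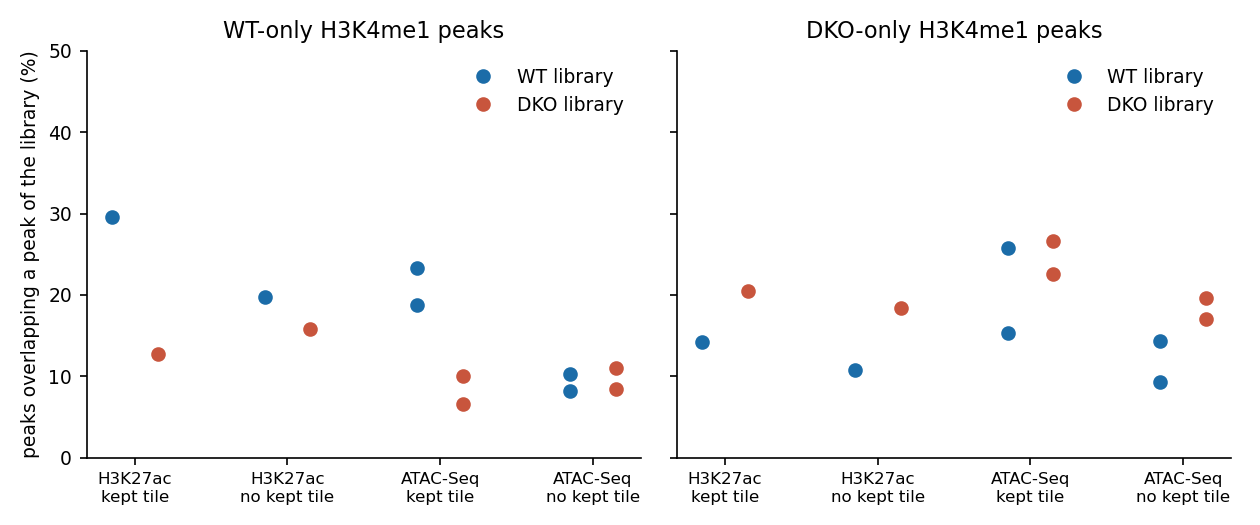
Share of WT-only (left) and DKO-only (right) H3K4me1 peaks that overlapped a peak of each H3K27ac or ATAC-Seq library (1 point per library, blue WT, red DKO), with and without a kept tile. At WT-only peaks with a kept tile the ATAC-Seq shares were 18.8% and 23.3% in WT and 6.56% and 10.1% in DKO.

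The binding of HNF6 (Onecut1), a liver transcription factor, was mapped in 2 liver samples of each genotype with lists of very unequal length, 4387 and 9355 peaks in WT and 9305 and 34665 in DKO. HNF6 peaks overlapped 1.17% and 2.41% of WT-only peaks in the WT libraries and 1.45% and 4.71% in the DKO libraries. At DKO-only peaks the shares were 1.05% and 2.25%, and 2.736% and 8.55%. Without the list of 34665 peaks the DKO minus WT difference was -0.34 points at WT-only peaks in place of 1.29, and 1.08 in place of 3.99 at DKO-only peaks. With equal peak numbers the differences were -0.55 points at WT-only and 0.14 at DKO-only peaks. At 20 days 5hmC, the product of TET enzymes, was found in WT hepatocytes at 25.2% of WT-only, 15.2% of DKO-only and 34.8% of shared WT peaks (1 library).

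RNA was compared between DKO and injected controls with limma on log2(FPKM + 1), so fold changes understate those of weakly expressed genes. Over the 10191 tested genes matched to the annotation, 16.1% were lower and 4.24% higher in DKO at an adjusted p under 0.05. With each library centred on its median these were 12.3% lower and 13.1% higher, because the median log2 fold change of all matched genes was -0.11. The number of calls rested on single libraries. Over all 11166 genes tested 1745 were lower and 483 higher, against 659 and 225 without injected control replicate 3, 717 and 280 without DKO replicate 1, and 1001 and 353 without DKO replicate 3. Among markers of other cell types, 1 of 10 endothelial genes tested (Stab2) was lower, and 0 with the libraries centred. Few genes of the other lists were tested: 6 Kupffer cell and macrophage, 2 leukocyte, 7 stellate cell and 3 cholangiocyte genes. None of these passed, with the deposited values or centred. The median log2 fold changes were -0.26 for the endothelial and -0.44 for the Kupffer cell and macrophage genes. The part of these cell types in the results was not tested. In bulk samples, fewer cells of a type and less RNA per cell cannot be told apart. A peak was given to the gene whose body, with 1 kb on both sides, held its midpoint.

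The share of genes lower in RNA was larger for genes with lost peaks, and the share higher was larger for genes with new peaks (a description, with no test of the difference). Of 1708 genes with a WT-only peak and no DKO-only peak, 21.9% were lower and 2.52% higher. Of 1812 genes with a DKO-only peak and no WT-only peak, 11.8% were lower and 6.02% higher. Of 2112 genes with both kinds 15.8% and 3.27% were, of 4050 genes with shared peaks only 16.5% and 4.40%, and of 408 genes without a peak 8.82% and 5.15%. With the libraries centred the shares were 17.1% lower and 11.01% higher for genes with WT-only peaks, and 8.72% lower and 16.6% higher for genes with DKO-only peaks, so each order held under both scalings. Against uninjected WT, the condition of the WT ChIP sample, 24.8% and 3.86%, and 12.4% and 7.73%, were lower and higher, where 17.3% and 5.44% of all matched genes were.

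The tags of a gene, the sum over the parts of peaks inside the gene with 1 kb on both sides, moved the same way. Among 15159 genes with tags in both genotypes and at least 40 in sum, 9.86% fell and 22.3% rose by at least 0.5 log2 units, and the median over all genes with tags in both genotypes was 0.16. The median log2 ratio was -0.03 for 1568 genes lower in RNA, 0.32 for 364 genes higher and 0.15 for 7287 genes not called. A fall of 0.5 log2 units was seen in 18.6% of the genes lower in RNA and in 3.02% of the genes higher. With the libraries centred the medians were -0.06, 0.24 and 0.13. Across 9219 genes, which are not independent replicates, the tag ratio and the RNA fold change had r = 0.22 and rho = 0.21, so most of the variation in either was not shared.

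**Figure D5:**
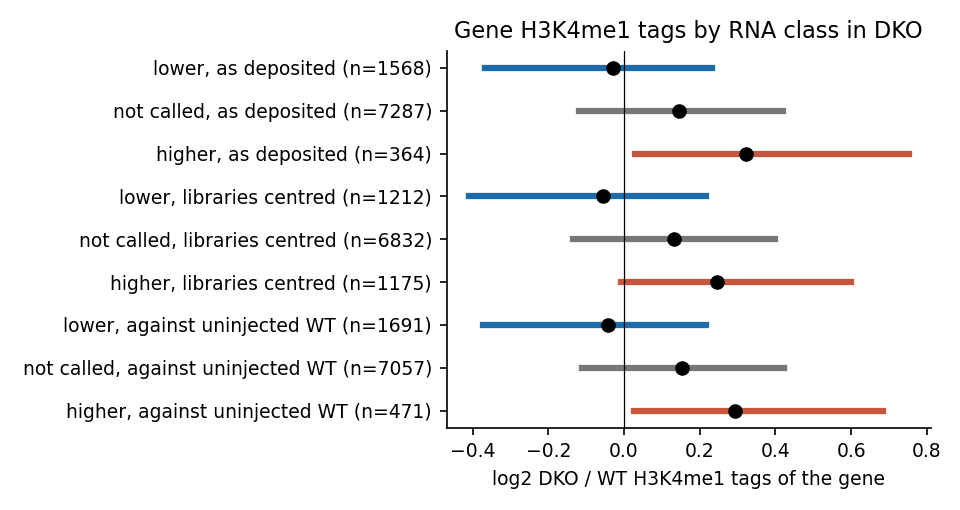
Log2 ratio of DKO to WT H3K4me1 tags per gene (x axis; point, median; bar, 25th to 75th percentile) for genes lower, not called and higher in RNA, with FPKM as deposited, with libraries centred and against uninjected WT. The median was -0.03 for lower and 0.32 for higher genes with the deposited values.

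Cyp7b1, the oxysterol 7-alpha-hydroxylase of the alternative bile acid pathway and a male-biased gene of mouse liver, held the most WT-only peaks of the genes in the lists below. It had 20 peaks in WT and 11 in DKO, of which 14 were WT-only and 1 DKO-only, and its tags went from 948 to 555. Its FPKM was 116, 87.6 and 125 in injected controls and 34.3, 32.1 and 21.5 in DKO (log2 fold change -1.88 ± 0.38 SE, limma adjusted p = 0.00540). The 3 DKO libraries were all under the controls. None of its 14 WT-only peaks held a kept tile, and over those with a tile the mean methylation was 83.7% in adult WT and 84.7% in DKO. Susd4, also male-biased, had 4 WT-only peaks without a kept tile, 233 tags in WT and 51.1 in DKO, and FPKM of 6.05, 3.604 and 7.87 in controls and 0.879, 0.711 and 0.311 in DKO (-2.03 ± 0.26, limma adjusted p = 0.000171). At these genes the summed tags and the RNA were both lower in DKO. The methylation values cover the WT-only peaks alone, with 5.63 to 23.7 tags each at Cyp7b1 and 6.22 to 7.99 at Susd4. The summed tags also hold the shared peaks of these genes, whose methylation is not given.

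The gene lists are read against all genes, which held 10899 WT-only and 13585 DKO-only peaks with a median log2 tag ratio of 0.16, and of which 16.1% were lower and 4.24% higher in RNA (12.3% and 13.1% with the libraries centred). Of the 16 male-biased genes 6 (37.5%) were lower in RNA and none higher, or 5 and 1 centred, with 28 WT-only peaks, 14 of them in Cyp7b1, 9 DKO-only peaks and a median log2 tag ratio of 0.13. Elovl3, a fatty acid elongase, went from 166 to 93.7 tags and Hsd3b5, a steroid dehydrogenase, from 198 to 106, and both were lower in RNA, calls that are lost without some single libraries (injected control replicate 1 or 3 or DKO replicate 3 for Elovl3, and each library but injected control replicate 2 for Hsd3b5; highest limma adjusted p 0.0680 and 0.0884). Of 19 female-biased genes 1 was lower and 1 higher (5.26% each), also when centred, and they held 4 WT-only and 8 DKO-only peaks, with a median log2 tag ratio of 0.54 over 17 genes.

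Of 22 liver transcription factors 7 (31.8%) were lower in RNA and none higher, against 16.1% and 4.24% of all matched genes, and 5 and none were with the libraries centred. They held 19 WT-only and 8 DKO-only peaks, where all genes held 10899 and 13585, with a median log2 tag ratio of -0.01. Nr1i3, the xenobiotic receptor CAR, went from 237 to 127 tags, and its FPKM was 33.0, 30.8 and 31.3 in controls and 2.01, 1.74 and 2.04 in DKO (-3.48 ± 0.35, limma adjusted p = 1.96e-05). Hnf4a went from 1379 to 991 tags and its FPKM from 126 ± 14.2 (SD, n = 3) to 82.2 ± 21.9 (-0.64 ± 0.20 SE, limma adjusted p = 0.0362), a call lost without injected control replicate 2 or 3 or DKO replicate 1 or 2 (limma adjusted p 0.0683 to 0.161). Nr5a2, an orphan receptor of bile acid genes, had 5 WT-only peaks, 2475 and 2163 tags and lower RNA (-0.72). Onecut1 had 526 tags in WT and 528 in DKO, with FPKM of 3.73, 9.76 and 0.714 in controls and 46.2, 14.0 and 15.6 in DKO, which did not pass the test (limma adjusted p = 0.0817).

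Of 24 genes of the cytochrome P450 and drug metabolism list 11 (45.8%) were lower and 3 (12.5%) higher in RNA, against 16.1% and 4.24% of all matched genes, and 11 and 4 were with the libraries centred. They held 28 WT-only and 14 DKO-only peaks, where all genes held 10899 and 13585, with a median log2 tag ratio of 0.05. Cyp1a2 went from 162 to 92.6 tags with lower RNA (-2.31 ± 0.27 SE, limma adjusted p = 7.62e-05). Of the Cyp2c genes Cyp2c29 had 7 WT-only peaks, Cyp2c50 4 and Cyp2c54 3, and the tags of Cyp2c54 went from 133 to 40.9, while those of Cyp2c29 were 212 and 239. Cyp2c29 had 625 FPKM in controls and 23.7 in DKO (-4.69 ± 0.24, limma adjusted p = 3.75e-08), and Cyp2c54 had 120 and 9.48. Cyp2c and Cyp2a genes share reads with near-identical copies, so their single values are uncertain. Cyp2e1 was lower in RNA (-3.74) with 43.5 and 32.4 tags and no peak of 1 genotype alone. Ugt1a1, the bilirubin glucuronosyltransferase, went from 81.1 to 496.5 tags with 1 DKO-only peak, and its FPKM was 142, 113 and 128 in controls and 112, 119 and 121 in DKO (limma adjusted p = 0.779), so a large rise in the mark came with no detected change in RNA.

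Of 15 genes of bile acid synthesis and transport 5 (33.3%) were lower and 1 (6.67%) higher in RNA, against 16.1% and 4.24% of all matched genes, and 4 and 2 were with the libraries centred. They held 34 WT-only peaks, 14 of them in Cyp7b1, and 12 DKO-only peaks, where all genes held 10899 and 13585, with a median log2 tag ratio of 0.01. Besides Cyp7b1, the carrier Slco1b2 had 7 WT-only peaks without a kept tile and lower RNA (-0.64 ± 0.16, limma adjusted p = 0.0162), and its tags were 473 and 458. The RNA call is lost without injected control replicate 1 or 3 or DKO replicate 1 or 3 (limma adjusted p 0.0524 to 0.0702). Abcc2, the canalicular export pump, had 5 WT-only peaks and went from 968 to 651 tags with FPKM of 87.9 ± 9.59 and 98.4 ± 30.3 (SD, n = 3), which did not pass the test (limma adjusted p = 0.802). Slc10a1, the bile acid uptake carrier, was the higher gene (1.19 ± 0.17), with 337 and 308 tags. Cyp7a1, the rate-limiting enzyme of the classical pathway, had 241 and 144 tags and RNA that did not pass the test (limma adjusted p = 0.498).

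Of 13 genes of the urea cycle and ammonia handling 5 (38.5%) were lower and none higher in RNA, with the deposited values and centred, against 16.1% and 4.24% of all matched genes with the deposited values. They held 27 WT-only and 17 DKO-only peaks, where all genes held 10899 and 13585, with a median log2 tag ratio of 0.01. Glud1, glutamate dehydrogenase, had 3 WT-only peaks, went from 455 to 226 tags and was lower in RNA (-0.72 ± 0.16, limma adjusted p = 0.00775). Slc25a13, the aspartate-glutamate carrier, had 9 WT-only peaks, of which 3 held a kept tile, and lower RNA (-0.51), a call lost without injected control replicate 3 or any 1 of the DKO libraries (limma adjusted p 0.0503 to 0.173). At 2 genes expressed around the central vein, mark and RNA went in opposite directions. Oat, ornithine aminotransferase, went from 15.1 to 142 tags while its FPKM was 264, 126 and 288 in controls and 11.1, 13.7 and 14.9 in DKO (-3.91 ± 0.42, limma adjusted p = 3.62e-05). Glul, glutamine synthetase, went from 21.5 to 64.2 tags with lower RNA (-3.53 ± 0.57, limma adjusted p = 0.00102). Cps1, the first enzyme of the cycle, had 7 WT-only and 11 DKO-only peaks, and its RNA did not pass the test (limma adjusted p = 0.384).

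Genes of glucose metabolism and insulin signaling held 26 WT-only and 39 DKO-only peaks, 13 of the latter in Ppargc1a, where all genes held 10899 and 13585, with a median log2 tag ratio of 0.13 against 0.16. In RNA 2 of 19 (10.5%) were lower and 1 (5.26%) higher, against 16.1% and 4.24% of all matched genes, and 1 and 1 were with the libraries centred. Ppargc1a, a coactivator of gluconeogenesis, held 13 DKO-only and no WT-only peaks and went from 281 to 774 tags. Its FPKM was 1.05, 2.28 and 1.93 in controls and 1.33, 1.90 and 3.59 in DKO (limma adjusted p = 0.656). Of its new peaks 3 held a kept tile. Insr, the insulin receptor, had 2339 and 2461 tags and RNA that did not pass the test (limma adjusted p = 0.634). Fto, a demethylase of RNA, had 10 WT-only and 10 DKO-only peaks and lower RNA (-0.54 ± 0.12, limma adjusted p = 0.00784), and Gsk3b and Gpd2 had 1372 and 1379, and 421 and 537 tags without a change in RNA that passed the test.

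Of 26 genes of lipid metabolism 4 (15.4%) were lower and 3 (11.5%) higher in RNA, against 16.1% and 4.24% of all matched genes, but 2 were lower and 6 higher with the libraries centred. They held 29 WT-only and 31 DKO-only peaks, where all genes held 10899 and 13585, with a median log2 tag ratio of 0.01. Of the 7 called genes, Fabp1 had a mark and RNA of opposite sign. Fabp1, the liver fatty acid binding protein, went from 34.8 to 106 tags with 1 DKO-only peak, and its RNA was lower (-0.74 ± 0.24 SE, limma adjusted p = 0.0459), a call lost with the libraries centred (0.0546) and without injected control replicate 3 or DKO replicate 1 or 3 (0.0962 to 0.220). Cd36, the fatty acid translocase, went from 259 to 466 tags with 5 DKO-only peaks and from an FPKM of 8.35, 5.98 and 6.79 to 21.0, 22.7 and 17.4 (1.42 ± 0.25, limma adjusted p = 0.00197). Elovl6, an elongase, had 6 DKO-only peaks, 1231 and 1543 tags and higher RNA (1.31 ± 0.17), and Acaca, acetyl-CoA carboxylase, 1022 and 1558 tags and higher RNA (0.49 ± 0.15, limma adjusted p = 0.0333). Acadm, which starts the oxidation of medium-chain fatty acids, fell from 303 to 98.8 tags and in RNA (-0.74 ± 0.18, limma adjusted p = 0.0134). Lpin1 went from 487 to 260 tags, but its FPKM ranged from 7.95 to 111 in controls and from 7.39 to 59.3 in DKO (limma adjusted p = 0.507). Scp2, a sterol carrier, had 2363 and 2153 tags and lower RNA (-0.86). The RNA calls of these genes are lost without injected control replicate 1 or 3 or DKO replicate 3 for Acaca (highest limma adjusted p 0.150), without injected control replicate 1 or 3 or DKO replicate 1 or 3 for Scp2 (0.151), and without injected control replicate 3 or DKO replicate 1 for Acadm (0.0684). Fabp6 had no peak in either genotype.

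Of the genes with a peak of 1 genotype alone and the largest changes in RNA, those not named so far included Cyp2c37, Cyp2a5, Fitm1, Lhpp, Gsn, Gbp11, Sult2a7, Cyp4a14, Tff3 and the Mup genes. Cyp2c37 had 2 WT-only peaks, 43.6 and 48.1 tags and FPKM of 154 ± 31.6 in controls and 4.31 ± 1.39 in DKO (SD, n = 3). Cyp2a5 had 2 WT-only peaks, 65.9 and 58.8 tags and FPKM of 223 ± 86.5 and 10.2 ± 3.73. Fitm1, a lipid droplet protein, had 1 WT-only and 1 DKO-only peak and went from 34.3 to 11.7 tags with FPKM of 16.9 ± 2.71 and 0.353 ± 0.125 (SD, n = 3). Lhpp, a phosphatase, went from 486 to 154 tags and from 17.1 ± 6.54 to 0.609 ± 0.043. Sult2a7, a sulfotransferase, gained 3 DKO-only peaks, went from 15.1 to 74.0 tags and rose from 0.764 ± 0.248 to 27.2 ± 6.83 FPKM. Gbp11, an interferon-induced GTPase, had 57.8 and 139 tags and 3.56 ± 0.863 and 38.3 ± 24.7 FPKM, and Gsn, gelsolin, had 184 and 206 tags and 0.160 ± 0.045 and 8.71 ± 1.52 FPKM. Cyp4a14, a fatty acid hydroxylase, had 178 and 256 tags and 12.7 ± 9.14 and 325 ± 132 FPKM, but 99.2 ± 44.4 in uninjected WT, against which it did not pass the test (limma adjusted p = 0.170). Tff3, a secreted trefoil peptide, had no tags in WT and a peak of 31.0 tags in DKO, with 7.50 ± 6.22 and 85.4 ± 64.8 FPKM. Mup10, Mup11 and Mup12, of a family of near-identical genes, are listed at 0 in all 3 controls, so no fold is given.

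Of 9 fetal liver genes tested 2 (22.2%) were higher in RNA (Tff3 and H19) and none lower, against 4.24% and 16.1% of all matched genes. With the libraries centred 3 (33.3%) were higher and none lower, against 13.1% and 12.3%. All 11 listed genes held 4 WT-only and 7 DKO-only peaks, where all genes held 10899 and 13585. H19 had no peak in either genotype. Of the Tet and Dnmt genes, Dnmt3a, a de novo DNA methyltransferase, had 7 WT-only and 2 DKO-only peaks and went from 1012 to 533 tags, with FPKM of 1.77, 1.98 and 1.60 in controls and 1.21, 0.991 and 1.25 in DKO (-0.37 ± 0.11, limma adjusted p = 0.0366), a call that is lost with the libraries centred (limma adjusted p = 0.165) and without any 1 of the 6 libraries (0.0643 to 0.0991). Tet2 had 2 WT-only and 2 DKO-only peaks and 273 and 306 tags, and Tet3 2 and 1 and 380 and 320 tags. The FPKM of Tet2 was 1.55 ± 0.626 in controls and 3.35 ± 0.650 in DKO (SD, n = 3), called higher (log2 fold change 0.79 ± 0.20 SE, limma adjusted p = 0.0173), a call lost without injected control replicate 3 (0.0962) or DKO replicate 1 (0.0819). The FPKM of Tet3 was 2.11 ± 0.436 and 2.39 ± 0.566 (SD, n = 3). Values over a whole gene do not show whether the floxed exons were removed. Of 13 matched genes for enzymes of H3K4 methylation and its removal the median log2 tag ratio was 0.40, with 4 WT-only and 11 DKO-only peaks, and none of the 17 tested passed in RNA in either direction, while 1 was higher with the libraries centred.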

How the data were processed

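H3K4me1 peaks of 1 WT and 1 DKO hepatocyte library were compared. Per the methods of the study, ChIP-Seq and ATAC-Seq reads were trimmed with cutadapt (1.15), aligned to mm9 with Bowtie2 (2.2.4) and freed of duplicates with SAMtools, and peaks were called against input with HOMER findPeaks in histone style, per library. The deposited lists give, for each peak, a Normalized Tag Count (a signal, tags per 10000000 of the library), the findPeaks Score (a score) and the fold over input (a ratio). The authors computed WGBS methylation as the methylated fraction per 200 bp tile of mm9 with BSMAP (2.74), with at least 15 CpGs of coverage and no depth column, and RNA as FPKM with Cufflinks. Read depth behind FPKM is unknown. Of the FPKM columns 6 were not used, since their names match no sample here. Columns were tied to groups by name and carry no replicate number of the labels.

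Peaks were shared at an overlap of 1 bp. Tiles were placed by their centre. Genes and promoters came from GENCODE for mm9, matched by symbol. RNA was tested with limma (3.58.1, R 4.3.3) on log2(FPKM + 1), over all groups in 1 fit, for genes that averaged 1 FPKM or more in some group, with Benjamini-Hochberg adjusted p over all 11166 genes tested, checked on simulated data. Nothing says whether libraries came from separate mice, so p-values measure the spread between libraries. Intervals are 95% Wilson or exact Poisson. Overlaps and shares used Python 3.11.15, pandas 2.3.3 and scipy 1.17.1. Named peaks were the 6 WT-only and 6 DKO-only peaks in a gene with most tags, the 5 pairs that fell and rose most with at least 100 tags, the 5 WT-only peaks in a gene with the highest DKO minus adult WT methylation over at least 3 tiles, and the genes with a peak of 1 genotype alone and the 5 largest falls and rises in RNA with no overlap between libraries, beside the gene lists and genes named by the study. Peaks on 1 chromosome are not named. A gene that the rule would name is not reported here. Members, lists and tests were chosen with earlier results of these data known.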

Additional observations from a re-analysis of the deposited data

How the results depend on the processing

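No paired analysis was possible because the H3K4me1, H3K27ac and WGBS lists are 1 library per condition and the RNA columns carry no replicate number. Requiring 50% coverage, allowing 1 kb, equal list lengths or autosomes left the counts of WT-only (11272 to 19970) and DKO-only peaks (17544 to 27818) within 1.5 times. The better-scoring 50% of each list left 3828 WT-only and 6684 DKO-only peaks. These were 10.9% and 17.2% of the peaks entered, against 20.6% and 27.4% of the full lists. The median log2 tag ratio of pairs was 0.12 per kb, 0.18 for pairs overlapping by 50% of both and for sums over merged regions, and 0 once centred. The DKO minus adult WT methylation was 13.6 points at WT-only peaks over pooled tiles, 14.0 for tiles wholly inside and 14.1 with no other peak within 1 kb. It was 8.87, 10.2 and 9.56 at DKO-only peaks, and 14.6 and 13.8 (pooled, wholly inside) at shared peaks. Kept tiles lay in WT and DKO peaks in 53.4% and 49.8% at 25 points, 73.7% and 67.0% at 50 points, 66.2% and 58.9% with equal lists, and, chosen after seeing the data, 52.4% and 45.7% for the 50000 best peaks. The DKO minus WT share with H3K27ac was -8.02 and -7.98 points at WT-only peaks, and 5.51 and 5.81 at DKO-only peaks, by midpoint and with equal peak numbers. With equal peak numbers the HNF6 difference at DKO-only peaks was 0.14, from 3.99. For HNF6 at WT-only peaks it reversed to -0.55 with equal peak numbers, from 1.29. Leaving out 1 library (chosen after seeing the data), it was -0.34 to 2.92, reversed without DKO replicate 2, and 1.08 to 6.90 at DKO-only peaks. For ATAC-Seq it was -4.28 to -1.43 and 3.43 to 9.16. With equal peak numbers the ATAC-Seq difference was -3.67 points at WT-only and 3.18 at DKO-only peaks. In RNA 1745 genes were lower and 483 higher. With the libraries of the 2 groups only 970 were lower, and with libraries centred (chosen after seeing the data) 1323 were lower and 1448 higher. Without 1 library 659 to 1841 were lower and 225 to 462 higher, with the lowest counts without injected control replicate 3 (659 and 225) and without DKO replicate 1 (717 and 280), and 1001 lower without DKO replicate 3. The cause was not tested. For genes with WT-only peaks the share lower was 17.1% centred and 24.8% against uninjected WT, and the share higher 11.01% and 3.86%. For genes with DKO-only peaks the share lower was 8.72% centred, and the share higher 16.6% and 7.73%. Of 308 fold changes of 28 named genes under 11 settings 250 kept direction and call, 58 lost the call and none reversed. The lost calls were those of Acaca, Acadm, Cyp4a14, Dnmt3a, Elovl3, Fabp1, Fto, Hnf4a, Hsd3b5, Scp2, Slc25a13, Slco1b2 and Tet2. With 1 H3K4me1 library per genotype and peaks of few tags, presence or absence of a weak peak cannot be told from counting error.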
